A study of Mus musculus with 40 samples.

Results

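The genes for proteins of the cytosolic ribosome were followed across 5 regions of the mouse brain and across 2 alleles of Dio2. Members were all genes on the array whose platform symbol is Rpl or Rps with a number and at most the endings a, l or x, together with Rplp0, Rplp1 and Rpsa, and Rplp2 was not analysed here. The rule took 61 of 19505 named genes, 23 of the small and 38 of the large subunit, and each had a single row in the table. Of these, 58 passed the filter on dim genes, which asked for a log2 signal over 4.60 on at least 4 arrays, as did 14978 genes in all. The 3 members under it were Rpl10l, Rpl39l and Rpl3l, paralogues known from testis, testis and striated muscle.

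The ribosome is built from ribosomal RNA and these proteins, most of them present in a single copy. The small subunit reads the messenger RNA, the large subunit joins amino acids, and a stalk of acidic proteins on the large subunit recruits the elongation factors. Messenger RNAs of ribosomal proteins are known for a run of pyrimidines at their very start, the TOP motif, through which mTOR and LARP1 control their translation as a group. In brain they are abundant in neurons and glia alike, and in many tissues their levels move together.

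The arrays measured total RNA of the amygdala, cerebellum, hippocampus, prefrontal cortex and striatum. In each region 4 arrays came from mice labelled Ala92D2HY (Ala below) and 4 from mice labelled Thr92D2HY (Thr below), so 40 arrays fell into 10 groups. Dio2 encodes type 2 deiodinase, the enzyme that converts thyroxine to the active hormone T3, and the alleles differ in a single amino acid, alanine or threonine. All mice shared the background strain given as C56BL/6, an age of 8 to 10 weeks, housing at 22 °C and a chow diet. The stated aim was to profile the brain areas and how they differ between the mice. The labels tie no array to an animal, sex, litter or batch, so the p-values rest on how far these arrays vary among themselves, and that variation may be technical only. Arrays are named by the number in their label, 1 to 40.

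Array medians lay between 6.12 and 6.32 on the log2 scale, and the medians of 23 background control rows between 4.74 and 5.67. Marker genes bore out the labelled regions in most cases: 14 of 14 cerebellum markers and 14 of 14 striatum markers were called higher in their region, 9 of 12 in the amygdala, 9 of 11 in the hippocampus and 9 of 11 neocortex markers in the prefrontal cortex. Against their label, 1 hippocampus marker and 1 neocortex marker were called lower in these regions. Several arrays stood apart by markers of other regions or tissues, among them Ala amygdala array 1 with a mean log2 signal of striatum markers 2.11 over the mean of its region, Ala striatum array 36 with choroid plexus markers 2.38 over, and Thr striatum array 40 with liver markers 2.04 over. In all, 14 arrays lay over 1 log2 unit above or below the mean of their region in markers of choroid plexus, thalamus, olfactory bulb or another sampled region, and results are also given without these where this changed them. Liver markers were not used to choose these arrays. Signals of ribosomal protein genes carry a further limit, since the mouse genome holds many near-identical processed pseudogenes, so a row may read more than its own gene.

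Promoter windows show what members share and where they differ at the start of the transcript. RefSeq promoter windows on GRCm38.p6 were found for 48 of the 61 members. The motif searched was a run of at least 5 bases, each C or T, that covers the annotated start, read on the gene's own strand only. It was present in 17 of the 48 members, 35.4%, against 11.8% of 27025 genes with a window. A run of at least 8 such bases anywhere within 30 bases of the start was present in 35 members, 72.9%, against 30.5% of all genes. The second motif can overlap the first. The 9 windows below belong to members named in later passages and were picked by hand, so they do not show the members' share with the run. Each runs from 60 bases before the start to 20 bases from the start onwards, 5′ to 3′, and capitals mark the run that covers the annotated start.
Rpl15 (chr14:18270967-18271046, minus strand): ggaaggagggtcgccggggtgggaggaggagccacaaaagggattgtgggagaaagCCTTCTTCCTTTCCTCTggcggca
Rps18 (chr17:33955646-33955725, minus strand): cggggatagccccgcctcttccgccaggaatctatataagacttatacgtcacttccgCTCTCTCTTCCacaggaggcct
Rpl35 (chr2:39005112-39005191, minus strand): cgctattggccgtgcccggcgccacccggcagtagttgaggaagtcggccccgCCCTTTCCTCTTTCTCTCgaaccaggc
Rpl38 (chr11:114668520-114668599, plus strand): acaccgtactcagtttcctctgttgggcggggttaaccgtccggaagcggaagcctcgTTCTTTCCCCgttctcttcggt
Rpl28 (chr7:4792905-4792984, plus strand): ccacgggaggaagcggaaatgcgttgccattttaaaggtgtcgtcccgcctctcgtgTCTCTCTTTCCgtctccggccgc
Rpl31 (chr1:39367791-39367870, plus strand): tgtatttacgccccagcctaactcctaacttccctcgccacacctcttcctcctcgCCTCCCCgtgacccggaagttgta
Rps16 (chr7:28350629-28350708, plus strand): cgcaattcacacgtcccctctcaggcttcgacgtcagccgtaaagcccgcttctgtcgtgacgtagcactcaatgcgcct
Rpl41 (chr10:128549149-128549228, minus strand): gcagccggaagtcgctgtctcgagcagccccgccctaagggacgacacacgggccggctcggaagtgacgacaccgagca
Rpl36a (chrX:134585594-134585673, plus strand): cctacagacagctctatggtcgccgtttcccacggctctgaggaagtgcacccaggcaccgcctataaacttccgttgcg
Rpl35 has the longest run of these 9, 18 bases, and Rpl15 has 17. Rps16, Rpl41 and Rpl36a have no run of 5 over their annotated start, and an annotated start can lie off the one used in brain. The letters describe these windows and no site was measured.

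The members were lower in the cerebellum than in the rest of the brain sampled. All 58 had a negative difference between the cerebellum and the mean of the other 4 regions, with a median of -0.73 log2 units, against a median of -0.00465 over all genes tested. The difference was called for 53 of them, all lower, at an adjusted p under 0.05 in limma's fit over all genes, where 28.1% of all genes were called lower. For 57 of the 58 the cerebellum had the lowest mean of the 5 regions, the exception being Rpl28. Of these, 12 were lower by at least 1 log2 unit, a change by a factor of 2, against 10.1% of all genes. With each array left out in turn, 49 of the 53 were called in every fit.

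**Figure D1:**
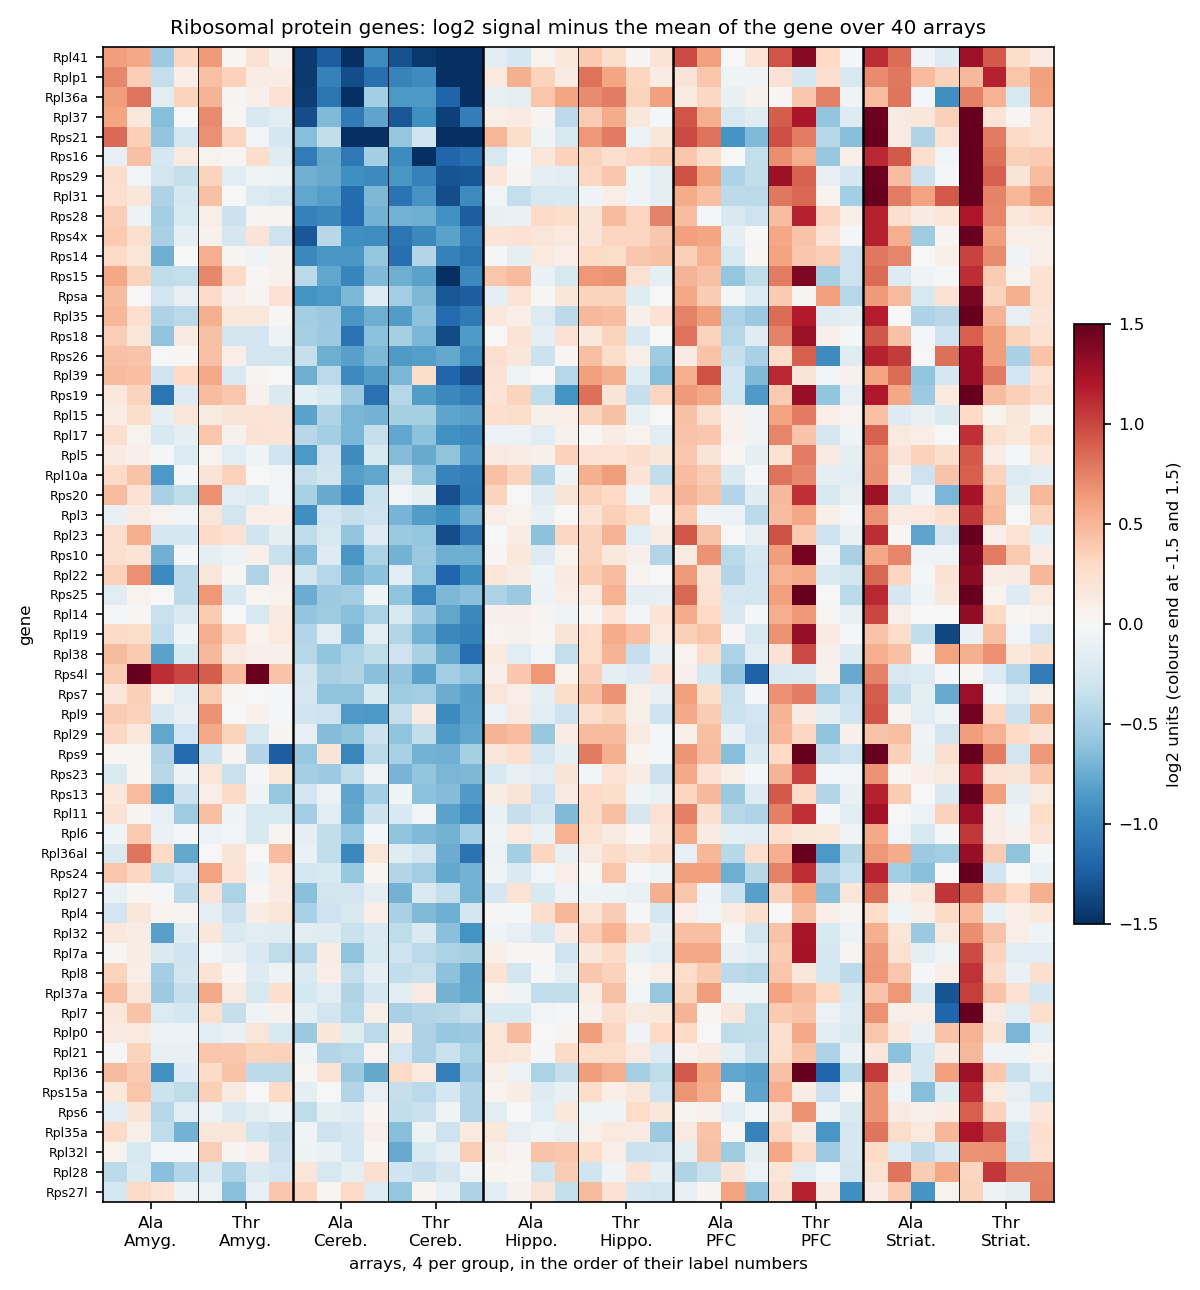
Log2 signal of each of 58 ribosomal protein genes (rows, ordered by their cerebellum difference) minus that gene's mean over 40 arrays, with colour from blue (lower) to red (higher) and ends at -1.5 and 1.5. Columns are arrays, 4 per group in the order of their label numbers; the 8 cerebellum columns are blue in most rows, and the first arrays of the prefrontal cortex and striatum groups are red in most rows.

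Among large-subunit members, Rpl41, a very short basic protein, had the most negative difference. Its log2 signal in the cerebellum was 12.59 at the lowest, 12.87 at the median and 13.37 at the highest of 8 arrays, against 13.76, 14.55 and 15.67 over the arrays of the other regions. No cerebellum array reached the lowest array of any other region. The difference was -1.76 ± 0.16 (SE, adjusted p = 5.78e-13). Rpl36a, which sits near the exit site of transfer RNA, was at 9.02, 9.49 and 10.13 in the cerebellum against 9.72, 10.97 and 11.45 elsewhere, so its ranges overlapped. Its difference was -1.42 ± 0.15 (adjusted p = 9.65e-11). Rpl15, a core structural protein, ran from 13.46 to 13.82 in the cerebellum and from 14.06 to 15.04 elsewhere, with no overlap and a difference of -0.82 ± 0.09 (adjusted p = 1.44e-10).

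Rplp1, an acidic protein of the stalk, had the smallest p of all members. It lay between 14.11 and 15.04 with a median of 14.75 in the cerebellum, against 15.62 to 17.13 with a median of 16.31 elsewhere. The ranges were apart, and the difference was -1.61 ± 0.11 (adjusted p = 6.03e-16). Rplp0, which anchors the stalk to the subunit, averaged 9.41 ± 0.30 in the cerebellum (SD, n = 8) and differed by -0.38 ± 0.12 (adjusted p = 0.00636). Both stalk genes were thus called lower, by unlike amounts.

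Of 23 small-subunit members 22 were called lower, with a median of -0.79, and of 35 large-subunit members 31, with a median of -0.67. Rps16, whose tail reaches the peptidyl site, was at 8.69, 9.25 and 9.80 in the cerebellum against 9.74, 10.56 and 11.85 elsewhere, and only the highest cerebellum array overlapped the others. Its difference was -1.29 ± 0.14 (adjusted p = 1.63e-10). Rps28, near the exit of the messenger RNA, ran from 8.43 to 8.97 in the cerebellum and from 9.17 to 10.89 elsewhere, a difference of -1.16 ± 0.13 (adjusted p = 5.29e-10). Rpsa, also described as a laminin receptor precursor, differed by -0.99 ± 0.13 (adjusted p = 2.51e-08). Rps6, the target of S6 kinase, differed by -0.29 ± 0.10 (adjusted p = 0.00881), the smallest of the called differences.

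In 8 members every cerebellum array lay under every other array, which 5.67% of all genes tested showed. These were Rpl15, Rpl17, Rpl31, Rpl37, Rpl41, Rplp1, Rps28 and Rps29, and they are named by this count, after their values were seen. The 5 members not called in the cerebellum were Rpl36, Rpl35a, Rpl32l, Rpl28 and Rps27l. Their differences ran from -0.35 ± 0.24 for Rpl36 to -0.11 ± 0.17 for Rps27l, a p53-induced relative of Rps27 (adjusted p = 0.231 and 0.612 for these 2). Rpl22, known for T-cell defects when it is deleted in mice, fell by 0.76 ± 0.16 log2 units (adjusted p = 5.76e-05).

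The striatum lay at the other end. There 55 of 58 members had a positive difference from the other regions, with a median of 0.43 against -0.000888 over all genes, and 44 had their highest mean there. The difference was called for 34, all higher, where 20.8% of all genes were called higher. By subunit these were 16 of 23 small-subunit members and 18 of 35 large-subunit members. In 0 members did every striatum array lie above every other array, which 2.16% of all genes tested showed. Each region's comparison uses all 40 arrays, so the striatum and cerebellum results share samples. With the cerebellum left out of the regions compared with, 18 members were called in the striatum. The share of all genes called in that setting is not given here, so the count cannot be set against the 20.8% above.

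**Figure D2:**
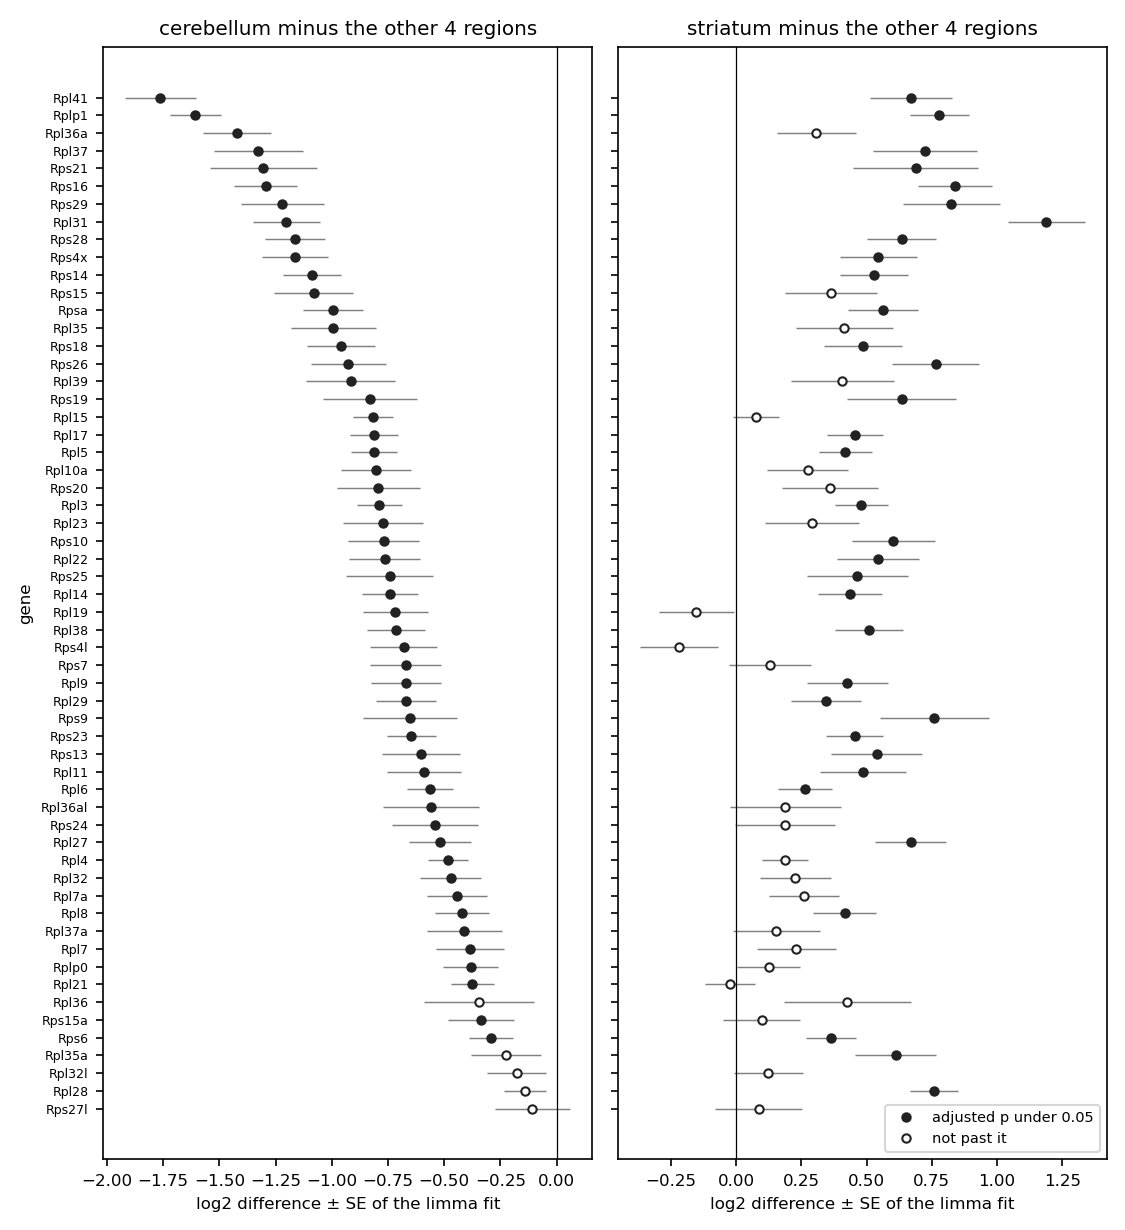
Log2 difference of each of 58 ribosomal protein genes between the cerebellum (left) or striatum (right) and the mean of the other 4 regions, with the SE of the limma fit; filled points passed an adjusted p under 0.05. All 58 points lie left of 0 in the cerebellum panel, and 55 lie right of 0 in the striatum panel, with Rpl31 farthest at 1.19.

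Rpl31, a protein beside the exit tunnel of the large subunit, was the only member called in the striatum with a difference of at least 1, against 5.71% of all genes that were higher and 5.2% that were lower by this rule. Its striatal log2 signals were 16.05, 15.32, 15.15 and 15.47 in Ala arrays and 16.49, 15.30, 15.06 and 15.19 in Thr arrays. Over the other regions it ran from 13.22 to 15.42 with a median of 14.32. The first array of each genotype was the highest, and the lower striatal arrays overlapped the prefrontal cortex. The difference was 1.19 ± 0.15 (adjusted p = 7.63e-09). Rpl28, a large-subunit protein that budding yeast lacks, ran from 14.59 to 15.42 in the striatum and from 13.73 to 14.74 elsewhere, a difference of 0.76 ± 0.09 (adjusted p = 5.20e-09). Rpl28 had the smallest p in this comparison although it was not called in the cerebellum, where it differed by -0.14 ± 0.09 (adjusted p = 0.193).

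Rplp1 was higher in the striatum by 0.78 ± 0.11 (adjusted p = 2.42e-07), Rps16 by 0.84 ± 0.14 (adjusted p = 3.79e-06) and Rpl27, a large-subunit protein, by 0.67 ± 0.14 (adjusted p = 8.59e-05). Rpl27 was dim, at 5.51 to 7.40 over all arrays, near the background medians of 4.74 to 5.67. Rpl41 was higher by 0.67 ± 0.16 (adjusted p = 0.000452). Rpl15, which lay apart from all other regions in the cerebellum, differed by 0.08 ± 0.09 in the striatum (adjusted p = 0.528), and Rpl36a by 0.31 ± 0.15 (adjusted p = 0.0986). The 3 members with a negative difference in the striatum, Rps4l, Rpl19 and Rpl21, were not called. Leaving out Ala striatum array 33 or Thr striatum array 37 ended the calls of Rpl6, Rpl9, Rpl11, Rpl29, Rps13, Rps19 and Rps21, and Rps25 lost its call without 26 of the 40 arrays taken singly. The other 26 of 34 were called whichever array was omitted.

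The remaining regions gave few calls. In the prefrontal cortex 6 members were called higher and 1 lower, against 12.7% and 13.1% of all genes, and the median over members was 0.20. Rpl41 was higher there by 0.69 ± 0.16 (adjusted p = 0.000709), Rpl15 by 0.35 ± 0.09 (adjusted p = 0.00243) and Rps23, a protein of the decoding centre, by 0.36 ± 0.11 (adjusted p = 0.0116). Rpl19 and Rps18 were higher by 0.41 each, and Rps4l was lower by 0.49 ± 0.15 (adjusted p = 0.0119), a call lost without Ala array 28. Among the higher calls, those of Rpl41 and Rpl15 were made in every fit with an array omitted. The call of Rps23 was lost without Ala array 25 or Thr array 30, that of Rpl19 also without Ala array 26 or Thr array 29, and that of Rps18 without any of these 4 or Ala cerebellum array 11. No called member reached a difference of 1, which 3.28% of all genes did upwards and 1.94% downwards, 5.21% in all. The number called was 3 without Ala array 25 or Thr array 30, 4 without Ala array 26 or Thr array 29, 14 without Thr array 32 and 13 without Thr striatum array 37.

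In the hippocampus 2 members were called higher and 0 lower, against 13.8% and 14.1% of all genes, with a median of 0.10. At an unadjusted p under 0.05 there were 7 members, against 36.4% of all genes. None of them reached a difference of 1, as 3.57% of all genes did upwards and 2.34% downwards, 5.91% in all. The called members were Rpl36a, higher by 0.50 ± 0.15 (adjusted p = 0.0111), and Rplp1, higher by 0.46 ± 0.11 (adjusted p = 0.00133). The number was 4 without Thr array 23 or Ala striatum array 33, 5 without Ala prefrontal cortex array 25, and 6 without Thr prefrontal cortex array 30 or Thr striatum array 37. In the amygdala 4 members were called higher and 2 lower, against 15.3% and 17.3% of all genes, with a median of 0.01 that turned to -0.02 when arrays were centred on the most highly expressed genes, and to -0.11 without the 14 arrays that deviated in other tissues' markers. The number was 3 without Ala amygdala array 1, 2 or 4, and 3 without Thr amygdala array 5, 6, 7 or 8.

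Rps4l, a gene annotated as like Rps4, was the member that set the amygdala apart. Its amygdala log2 signals were 7.85, 9.17, 8.57 and 8.47 in Ala arrays and 8.38, 7.95, 8.96 and 7.89 in Thr arrays. Over the other regions it ran from 6.25 to 8.21 with a median of 7.25, so 5 of 8 amygdala arrays lay above all others. The difference was 1.17 ± 0.15 (adjusted p = 3.80e-08), and it was called whichever array was omitted. It was the only called member past a difference of 1 in the amygdala, a rule that 3.4% of all genes met upwards and 2.44% downwards, 5.84% in all. Rpl28 was lower in the amygdala by 0.45 ± 0.09 (adjusted p = 0.000161), again with every array omitted in turn, and Rps9, a protein at the messenger RNA entry, was lower by 0.55 ± 0.21 (adjusted p = 0.0393). Rps9 was no longer called without amygdala array 3, 4, 7 or 8. Rpl21 was higher by 0.25 ± 0.10 (adjusted p = 0.0387), and its call was lost without any of 6 amygdala arrays, 1, 2 and 5 to 8. Rplp1 and Rpl36a, higher by 0.29 ± 0.11 and 0.38 ± 0.15 (adjusted p = 0.0446 and 0.0485), were called in 19 and 15 of 40 fits with an array omitted.

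Paralogues did not follow 1 pattern. Rps4x, the standard small-subunit S4 protein, averaged 8.73 ± 0.25 in the cerebellum and 9.62 ± 0.31 in the amygdala (SD, n = 8 each), and it differed by -1.16 ± 0.15 in the cerebellum (adjusted p = 6.28e-09) and by -0.05 ± 0.15 in the amygdala (adjusted p = 0.854). Its relative Rps4l differed by -0.68 ± 0.15 in the cerebellum (adjusted p = 0.000147) and had its highest mean in the amygdala. Rpl36a and its intronless relative Rpl36al were both lower in the cerebellum, Rpl36al by 0.56 ± 0.21 (adjusted p = 0.0235), a call that was lost without cerebellum array 11 or 16. Over all arrays Rpl36al lay between 5.12 and 7.82, so its lowest signals were within the range of the background rows. Rpl3, close to the peptidyl transferase centre, and Rpl39, a small protein of the exit tunnel, were lower in the cerebellum by 0.79 ± 0.10 and 0.92 ± 0.20 (adjusted p = 8.00e-09 and 0.000117), while their relatives Rpl3l and Rpl39l stayed under the filter. Rpl3l lay between 2.67 and 4.06 over all arrays, Rpl39l between 3.41 and 4.96, and Rpl10l between 3.69 and 5.06, the range of the background rows or lower. Rps27l had nearly the same mean everywhere, from 7.27 in the cerebellum to 7.42 in the striatum, and its test for any difference among regions gave an adjusted p of 0.948.

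For each gene the order of the 5 regions was taken from the means, and neighbours in that order were mostly closer than their spread. Rplp1 averaged 16.60 ± 0.26 in the striatum, 16.35 ± 0.25 in the hippocampus, 16.21 ± 0.32 in the amygdala, 16.04 ± 0.24 in the prefrontal cortex and 14.69 ± 0.33 in the cerebellum (SD, n = 8 each). Its 4 upper regions differed from their neighbours by less than 1 SD, and the gap to the cerebellum was several SD. Some difference among regions was called for 50 of 58 members, 86.2%, against 68.8% of all genes.

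Other genes of translation, listed with earlier results known, were set beside the members by count of calls. Of all genes, 29.4% were called higher and 28.1% lower in the cerebellum, and 20.8% and 23.2% in the striatum. Of 5 genes with ribosomal protein names outside the rule, 1 was higher and 2 lower in the cerebellum. Rps3a1, the small-subunit S3a protein, was lower by 0.64 ± 0.17 (adjusted p = 0.00169), and Fau, which carries Rps30, differed by -0.25 ± 0.15 (adjusted p = 0.147). Of 16 elongation and termination factors 4 were higher and 4 lower in the cerebellum, with a median of -0.08. Eef1a1, which brings transfer RNA to the ribosome, was lower by 0.62 ± 0.07 (adjusted p = 1.36e-10), and Eef1a2, its form in neurons and muscle, was higher by 0.63 ± 0.09 (adjusted p = 4.13e-08). Eef2, the translocation factor, was higher by 0.20 ± 0.09 (adjusted p = 0.0473), and Eef2k, the kinase that inhibits it, by 1.36 ± 0.12 (adjusted p = 5.98e-13).

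Initiation factors were 9 higher and 12 lower of 32 in the cerebellum, with Eif4a1, a helicase, lower by 0.87 ± 0.11 (adjusted p = 1.22e-08) and a median over the list of -0.08. Of 18 further genes whose messenger RNAs carry a TOP motif, which include Eef1a1 and other entries of the lists above, 10 were lower and 1 higher, with a median of -0.36. Nap1l1, a histone chaperone, was lower by 1.40 ± 0.13 (adjusted p = 1.83e-12). In the striatum 9 of these 18 were higher and 0 lower, with a median of 0.18. Ribosome biogenesis genes were 20 higher and 18 lower of 76 in the cerebellum, with a median of -0.01. Mitochondrial ribosomal proteins were 13 higher and 19 lower of 77, with a median of 0.02, and in the striatum 12 higher and 10 lower. Oxidative phosphorylation subunits were 15 higher and 16 lower of 79 in the cerebellum, with a median of -0.03, and 20 higher and 4 lower in the striatum. The 3744 most highly expressed genes had a median of 0.01 in the cerebellum, beside -0.73 for the members.

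Markers of cell types also differed between the regions. In the cerebellum 14 of 14 microglia markers were lower, with a median of -1.82, and their mean over the markers lay between -1.68 and -1.28 on the 8 cerebellum arrays, against -0.05 to 0.84 elsewhere, with 3 markers at or under the background rows. In the striatum 14 of 14 microglia markers were higher, with a median of 0.90, as were 15 of 15 oligodendrocyte markers, with a median of 1.98 and scores between 1.29 and 2.19, none of them under the background. The same held for 9 of 9 liver markers, with scores between 0.88 and 3.97 and 3 of 9 at or under the background. Of 16 pan-neuronal markers, 6 were higher and 10 lower in the cerebellum and 2 higher and 10 lower in the striatum. For astrocyte markers, cerebellum arrays scored 0.07 to 0.45 and striatum arrays -0.49 to -0.08. Between the other regions, hippocampus arrays scored 0.17 to 0.49, amygdala arrays -0.30 to 0.30 and prefrontal cortex arrays -0.40 to -0.03. For oligodendrocyte markers, cerebellum arrays scored 0.04 to 0.50. These lay above all amygdala arrays (-2.92 to -0.65) and prefrontal cortex arrays (-1.26 to -0.01), and within the range of hippocampus arrays (-0.96 to 1.07). In tissue RNA, fewer cells of a type and less RNA per cell cannot be told apart, and the part of cell types in the members' differences was not tested. Without the 14 arrays that deviated in other tissues' markers, 52 members were called in the cerebellum and 25 in the striatum. The shares of all genes called in that fit are not given here.

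The pyrimidine run did not separate members by size of difference. In the cerebellum the median was -0.71 over 17 members with the run and -0.75 over 28 without it, and in the striatum it was 0.44 in both. Rpl15 and Rpl41, with and without the run in the windows printed above, were both apart from all other regions in the cerebellum.

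Between genotypes no member was called. In limma's fit over all genes, 0 of 58 passed an adjusted p under 0.05 for Ala minus Thr in any of the 5 regions or in their average, and the smallest adjusted p of a member was 0.820. The share of all genes called was 0.12% in the amygdala (0.00668% higher and 0.113% lower in Ala), 0% in the cerebellum, hippocampus and prefrontal cortex, 0.0801% in the striatum (0.0267% higher and 0.0534% lower) and 0.02% in the average (0.00668% higher and 0.0134% lower). At an unadjusted p under 0.05, 1 member was lower in Ala in the amygdala, 1 in the prefrontal cortex and 1 in the average, and 0 in the cerebellum, hippocampus and striatum. The share of all genes at this level was 5.33% in the amygdala, 1.94% in the cerebellum, 3.14% in the hippocampus, 2.33% in the prefrontal cortex, 6.14% in the striatum and 5.37% in the average. Whether the genotype difference varied between regions was called for 0 members, against 0.0401% of all genes, with 0 members at an unadjusted p under 0.05, against 2.68% of all genes.

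The direction of the small differences was shared by most members within a region. Their median was 0.20 in the cerebellum, with 54 of 58 positive, and -0.08 in the amygdala with 39 negative, -0.15 in the hippocampus with 50 negative, -0.15 in the prefrontal cortex with 51 negative and -0.22 in the striatum with 52 negative. Over all genes these medians lay within 0.03 of 0. Since members move together from array to array, these counts are not 58 separate measurements. The medians turned to 0.04 in the amygdala without Ala array 3 and to 0.01 without Thr array 5, to 0.02 in the prefrontal cortex without Thr array 30 and to 0.03 in the striatum without Thr array 37. Without the 14 arrays that deviated in other tissues' markers they were -0.34 in the amygdala, 0.09 in the cerebellum, -0.28 in the hippocampus, -0.27 in the prefrontal cortex and -0.45 in the striatum. The arrays omitted included Ala striatum array 33 but not Thr striatum array 37. Leaving out array 33 alone gave -0.40 in the striatum. Of 7 lists of cell type and other tissue markers, 2 separated the genotypes in the striatum without overlap, in opposite directions. Liver markers scored 0.88 to 1.58 on Ala arrays and 2.09 to 3.97 on Thr arrays, with 4 of 9 called lower in Ala. At or under the background rows were 5 of 9 in Ala and 0 in Thr. Choroid plexus markers scored 0.61 to 3.16 on Ala arrays and -0.50 to 0.17 on Thr arrays, with 15 of 15 positive and 0 called. Of these 15, 2 in Ala and 7 in Thr were at or under the background rows. Choroid plexus markers were also narrowly apart in the prefrontal cortex, at -1.07 to -0.56 in Ala and -1.38 to -1.08 in Thr. There 9 of 15 were at or under the background rows in each genotype. Endothelial and mural markers were apart in the hippocampus, at -0.08 to 0.11 in Ala and -0.35 to -0.16 in Thr. The part of these in the members' differences was not tested.

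**Figure D3:**
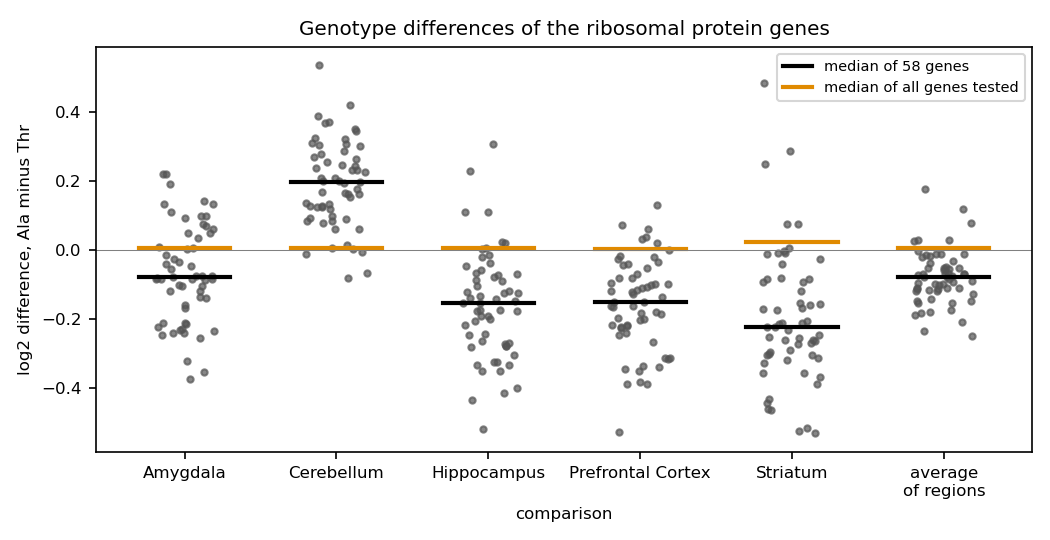
Log2 difference, Ala minus Thr, of each of 58 ribosomal protein genes (points) in the 5 regions and in their average. Black bars are medians of the 58 genes, from -0.22 in the striatum to 0.20 in the cerebellum, and orange bars are medians of all genes tested; no point passed an adjusted p under 0.05.

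The members with the smallest p show the sizes involved. In the amygdala Rpl21, a large-subunit protein, was at 16.78, 17.12, 16.68 and 16.68 in Ala arrays and at 17.21, 17.19, 17.13 and 17.14 in Thr arrays. All Ala arrays were lower, by 0.35 ± 0.17 in the mean (adjusted p = 0.923), and 1.62% of all genes lay apart in this direction. In the cerebellum Rpl4, which lines the exit tunnel, was at 15.41, 15.59, 15.65 and 16.00 in Ala arrays and at 15.41, 15.24, 15.17 and 15.62 in Thr arrays. These overlapped, with a difference of 0.31 ± 0.16 (adjusted p = 1.00).

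In the hippocampus Rpl11, which also binds Mdm2, had signals of 12.83, 12.58, 12.67 and 12.26 in Ala arrays and 13.22, 13.37, 12.68 and 13.15 in Thr arrays, with overlap at a single Thr array and a difference of -0.52 ± 0.29 (adjusted p = 1.00). In the prefrontal cortex Rps28 had 10.13, 9.65, 9.45 and 9.36 in Ala arrays and 10.13, 10.82, 9.99 and 9.76 in Thr arrays, with a difference of -0.53 ± 0.24 (adjusted p = 1.00). Rps28 also had the smallest p in the average over regions, at -0.23 ± 0.11 (adjusted p = 0.881). In the striatum Rpl7, a large-subunit protein, had 13.64, 13.05, 13.06 and 11.77 in Ala arrays and 14.57, 13.10, 12.79 and 13.20 in Thr arrays. The lowest Ala array and the highest Thr array lay apart from the other 6, and the difference was -0.53 ± 0.27 (adjusted p = 0.820).

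Groups without overlap were few. Beside Rpl21 in the amygdala, Rps23 was higher in all Ala arrays of the cerebellum, where 1.35% of all genes lay apart upwards, and Rpl7 and Rps14 were lower in all Ala arrays of the hippocampus, where 1.32% lay apart downwards. In the prefrontal cortex 0 members lay apart, against 0.875% of all genes upwards and 0.781% downwards, and in the striatum 0, against 1.31% and 0.668%. These members are named by this count, after their values were seen.

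The member mean of each array shows how the arrays of a group spread. The mean over 58 members, each gene centred on its mean of 40 arrays, was -0.51 ± 0.13 in Ala and -0.70 ± 0.17 in Thr cerebellum, -0.01 ± 0.30 in Ala and 0.06 ± 0.16 in Thr amygdala, and 0.01 ± 0.06 in Ala and 0.17 ± 0.18 in Thr hippocampus (SD, n = 4 each). In the prefrontal cortex it was 0.07 ± 0.38 in Ala and 0.23 ± 0.48 in Thr, and in the striatum 0.24 ± 0.42 in Ala and 0.43 ± 0.49 in Thr. The cerebellum arrays ran from -0.85 to -0.41, under every array of the other regions. The striatum arrays ran from -0.13 to 1.12 and overlapped those of the prefrontal cortex, from -0.29 to 0.73. The highest array of all was Thr striatum array 37, at 1.12, followed by Ala striatum array 33, at 0.83.

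**Figure D4:**
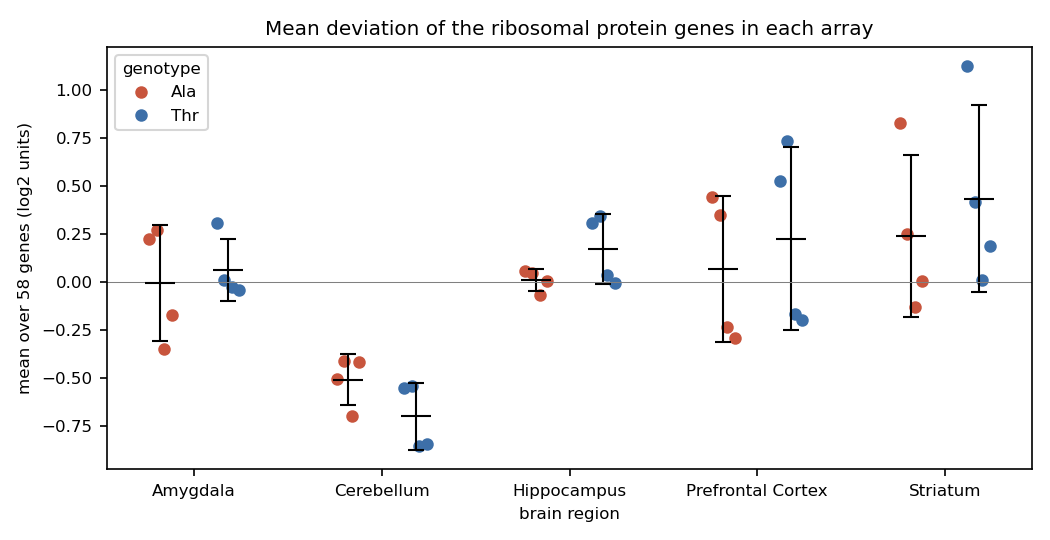
Mean over 58 ribosomal protein genes of the log2 signal minus each gene's mean over 40 arrays (points, 1 per array), by region and genotype with Ala left of Thr. Wide bars are group means and whiskers SD of 4 arrays; the cerebellum arrays lie between -0.85 and -0.41, and the genotypes overlap in every region.

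With group means taken out, a member's correlation over 40 arrays with the mean of the other members had a median of 0.79, as a description of arrays that were normalized together. It was at least 0.5 for 51 of 58 members and at least 0.8 for 28, and its median over other genes tested was -0.01. Rpl35, a protein at the tunnel exit, followed the others most closely at 0.97, then Rps29 at 0.94 and Rpl31 at 0.92. Rpl28 ran against them at -0.25, and Rpl4 at 0.20, Rps27l at 0.34, Rps4l at 0.41 and Rplp1 at 0.41 followed them least. The median within-group SD of a member was 0.41 log2 units, against 0.32 for all genes tested.

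This shared spread went with the order of the label numbers. Places 1 to 4 are the ranks of the 4 label numbers within a group. The member mean deviated from its group's mean by 0.28 on average at place 1 and 0.15 at place 2, and by -0.25 at place 3 and -0.18 at place 4. Places 1 and 2 exceeded places 3 and 4 in 10 of 10 groups, by 0.08 to 0.81 and 0.42 on average, and in 9 groups both arrays of the lower label numbers lay above both arrays of the higher ones. The exception was Ala cerebellum, with deviations of 0.0008, 0.10, -0.19 and 0.09 at the 4 places. This is a description with no test, and the labels give no meaning to the numbers beyond naming the arrays.

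**Figure D5:**
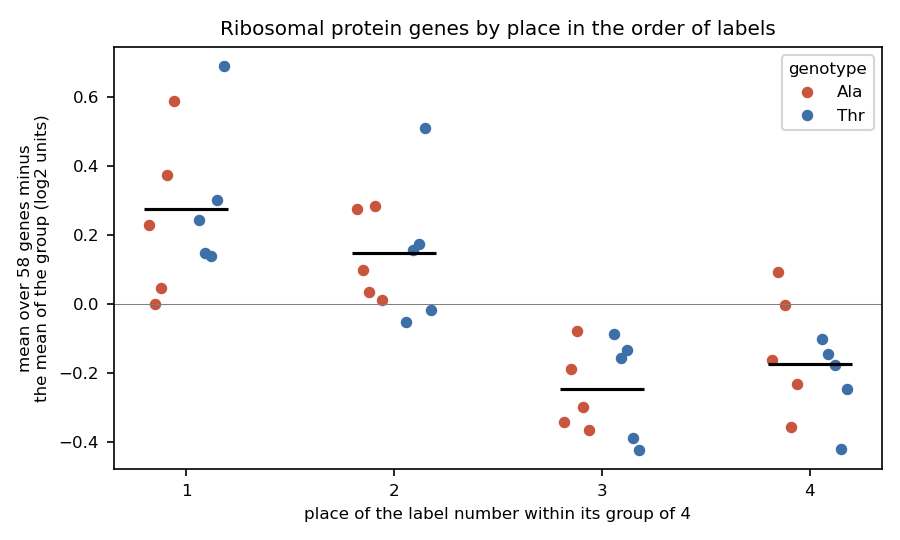
Mean over 58 ribosomal protein genes minus the mean of the group (vertical axis, log2 units) against the place of an array's label number within its group of 4, with Ala points left of Thr points. Bars are means over 10 groups, at 0.28, 0.15, -0.25 and -0.18; all points of place 3 lie under 0.

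The gap between the places was widest for Rps21, a small-subunit protein, at 1.02 on average and positive in 10 groups. In the striatum Rps21 was at 14.47, 12.92, 12.34 and 13.01 in Ala arrays and at 14.32, 13.57, 13.08 and 13.02 in Thr arrays. In the cerebellum it was at 12.15, 12.42, 11.29 and 11.25 in Ala arrays and at 12.21, 12.49, 11.10 and 11.07 in Thr arrays. The first place was the highest in the striatum, and places 1 and 2 both exceeded 3 and 4 in the cerebellum. Rpl36 had a gap of 0.98 and Rps19 of 0.80, while Rpl28 and Rpl4 were at -0.06 and -0.09, each positive in 3 groups. The members named for their gap were chosen after their values were seen.

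Over all genes tested the same gap was 0.01, over the 3744 most highly expressed genes 0.03 and over the background rows -0.01. It was 0.25 over the further TOP genes, positive in 10 groups, 0.19 over initiation factors, positive in 10, 0.22 over oxidative phosphorylation subunits, positive in 8, and 0.15 over mitochondrial ribosomal proteins, positive in 8. Ribosome biogenesis genes had 0.01, positive in 5 groups. For markers of cell types the gap was 0.18 over astrocyte, 0.19 over microglia and 0.16 over endothelial and mural markers, each positive in 10 groups, 0.26 over oligodendrocyte and 0.10 over pan-neuronal markers, each positive in 6, 0.12 over liver markers, positive in 5, and 0.03 over choroid plexus markers, positive in 7. Oligodendrocyte markers in the amygdala deviated by 0.79, 1.00, -1.23 and -0.56 at places 1 to 4 in Ala and by 0.86, -0.02, -0.86 and 0.02 in Thr. There the member mean deviated by 0.23, 0.28, -0.34 and -0.16 in Ala and by 0.24, -0.05, -0.09 and -0.10 in Thr. The part of these markers in the members' gap was not tested. Members with and without the pyrimidine run had the same median gap of 0.45.

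The cerebellum and striatum medians kept their direction within both sets of places. The cerebellum median was -0.83 over places 1 and 2 and -0.61 over places 3 and 4, and the striatum median 0.56 and 0.33. The prefrontal cortex median was 0.41 and 0.01, that of the hippocampus -0.05 and 0.25 and that of the amygdala -0.03 and 0.07, so these depended on the places compared. Genotype medians, Ala minus Thr, were 0.09 and -0.24 in the amygdala, 0.12 and 0.32 in the cerebellum, -0.26 and -0.06 in the hippocampus, -0.28 and -0.08 in the prefrontal cortex and -0.23 and -0.20 in the striatum. With lower and higher label numbers as a term in the fit, a setting chosen after seeing the data, 54 members were called in the cerebellum, 41 in the striatum, 14 in the prefrontal cortex, 7 in the hippocampus and 6 in the amygdala, and 0 between genotypes. Of all genes, that fit called 58.5% in the cerebellum, 45.1% in the striatum, 27.2% in the prefrontal cortex, 29.1% in the hippocampus and 33.8% in the amygdala, either way, against 57.5%, 44%, 25.8%, 27.9% and 32.6% without the term.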

How the data were processed

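Total RNA was extracted with Trizol and biotin-labelled cDNA was hybridised to Affymetrix arrays, per the labels' protocols. The deposited values are log2 signals that the authors made with RMA, per the submitters' processing notes, whose version is not given in the sources used here. That method removes background, equalises arrays and summarises probes, which can shrink a shift shared by all genes. The values reached 19.9, so sizes of differences hold on the deposited scale only, and the number of arrays limits their precision.

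From these values, 19572 of 28846 rows had 1 gene symbol. The row with the highest mean stood for a gene, which mattered for 55 of 19505 genes and no member. A gene was tested if at least 4 arrays exceeded the 30th percentile of the table. The model held a mean for each of 10 groups and left 30 residual degrees of freedom (limma 3.58.1, with lmFit and eBayes with a trend, under R 4.3.3), and p-values were adjusted over all 14978 genes by the Benjamini-Hochberg method. Contrasts were Ala minus Thr per region, their average and interaction, and each region minus the mean of the other 4. The 23 background rows are those named as background probes on the array. All adjusted p-values of genes are from these fits.

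The members and lists were chosen with earlier results of these data known. Members named are the 5 smallest p per direction among those called in a regional comparison, the 3 smallest p in a genotype comparison, the stalk proteins, Rpsa, Rps6, Rpl22, the paralogue pairs and those under the filter. Simulated arrays with planted differences were used to check the fit. Alternatives covered scaling, filters, variance estimates, array weights, genotypes or regions left out and each array left out. Omitting 14 arrays by marker scores and the term for label numbers were chosen after seeing the data. Promoter windows came from RefSeq, GRCm38.p6.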

Additional observations from a re-analysis of the deposited data

Results flagged for a closer look

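In groups of 4 arrays, the gap of the farthest array to its nearest neighbour was divided by the range of the group, and values over Dixon's critical limit are given here. Of 370 values tested, over 36 named members and the mean over all members, 15 passed. This share is no higher than the about 1 in 20 groups that chance flags, so a single flag may be chance. In 13 the array was the highest of its group and in 2 the lowest. In the striatum, Ala array 33 stood above for Rpl15 (ratio 0.839), Rpl17 (0.830), Rps28 (0.890) and Rps6 (0.923). Thr striatum array 37 stood above for Rpl17 (0.856), Rpl31 (0.830) and Rpl6 (0.867). Both arrays are the first of their group by label number. In the amygdala Ala array 2 was high for Rpl6 (0.839), and Thr array 5 was high for Rpl38 (0.856) and for the mean over members (0.855), while Thr array 6 was low for Rps28 (0.862). In the cerebellum Ala array 9 was low for Rpl3 (0.903) and Thr array 13 was high for Rplp0 (0.830). In the hippocampus Ala array 20 was high for Rpl19 (0.853) and Thr array 24 for Rpl27 (0.940). Arrays 5, 9 and 13 are also first by label number. Choroid plexus marker scores were raised by 1.32 on array 33, 1.55 on array 2 and 1.63 on array 24, which also had thalamus markers raised by 1.16, and array 2 had liver markers raised by 1.49. The part of these in the values was not tested.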

How the results depend on the processing

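Of 1215 values recomputed under alternatives, 1175 stayed within 1.5 times of the main count or within 0.31 log2 units, the SD between arrays of a group, of the main median, and 0 genotype calls appeared under any of them. The limit of 0.31 is wider than the main medians between genotypes and those of the amygdala, hippocampus and prefrontal cortex. Those medians could reach 0 or change sign within it, so staying within it does not show that they held. Of the medians 15 changed sign, 4 between genotypes, given above, and 11 of the amygdala against the other regions, whose main value of 0.01 lies near 0. The cerebellum and striatum counts of 53 and 34 moved to 12 and 1 when an absolute difference of at least 1 was also asked for, to 31 and 20 with Ala arrays alone, and the striatum count to 18 with the cerebellum left out of the comparison, a choice not run for the cerebellum itself. The amygdala count of 6 moved to 1 with the size threshold, 2 and 3 with Ala or Thr arrays alone, 3 with eBayes without a trend and 3 omitting the 14 arrays that deviated in other tissues' markers. The hippocampus count of 2 moved to 13 with array weights, 0 with the size threshold, 1 with the cerebellum left out, 0 with Ala arrays alone, 4 omitting the 14 arrays that deviated in other tissues' markers and 7 with label numbers as a term. The prefrontal cortex count of 7 moved to 13 with array weights, 0 with the size threshold, 2 with the cerebellum left out, 1 and 4 with Ala or Thr arrays alone, and 14 with label numbers as a term. Omitting each array in turn gave 49 to 53 calls in the cerebellum, 26 to 38 in the striatum, 3 to 6 in the amygdala, 2 to 6 in the hippocampus and 3 to 14 in the prefrontal cortex. Shares of all genes are given above only for the size threshold and the term for label numbers. The other counts here have no such share beside them. The causes of the moves were not tested, except that a size threshold or fewer arrays can by construction call fewer. No paired analysis was possible because the label numbers 1 to 40 are unique, so groups share none. Signals near the background rows limit Rpl27 and the dimmest paralogues, among them Rpl36al.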
